A study of Mus musculus with 2 samples.

Results

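The cytosolic ribosomal protein genes encode the proteins of the small and large subunits of the ribosome. They were taken by gene symbol: every gene probe of the array whose RefSeq accession resolved to a symbol beginning Rps or Rpl followed by a number, or to Rpsa, Rplp0, Rplp1 or Rplp2, without pseudogene symbols and the Rps6k kinases. The rule found 88 of 20887 named genes, measured by 176 probes, with 35 small subunit symbols and 53 large subunit symbols. Of these, 76 encode the standard ribosomal proteins, here called core genes. The other 12 are paralogs, retrogenes and genes that share the symbol, among them Rps19bp1, which encodes a binding partner of Rps19 and not a ribosomal protein. The rule misses genes such as Fau and Rack1, which also encode proteins of the ribosome and are described with the ribosome partners.

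RNA came from TCRαβ+CD8αα+ intraepithelial lymphocytes (IELs), T cells that live between the epithelial cells of the small intestine, sorted without CD4, CD8β or TCRγδ on their surface. The mice were C57BL/6, 8 to 12 weeks old by the labels, with males and females pooled, while the study's text gives a narrower range of ages. The control mice were Rbpjf/f by the labels, while the study's text describes Rbpj+/+ mice that carry CD4-Cre, so whether the controls carried the Cre is not settled. The other mice were CD4-Cre Rbpjf/f, in which the Cre acts in T cells and removes Rbpj, the DNA-binding factor of Notch signaling. Each genotype gave 1 RNA pool from several isolations, of which 150 ng was labeled and hybridized to 1 array of 1 color. With 1 array per genotype there is no test, no replicate error and no p-value in what follows, and the differences are those between these 2 arrays.

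A ribosome is built in the nucleolus from ribosomal RNA and one copy of nearly every ribosomal protein, so the genes of these proteins are usually expressed together. Their mRNAs are among the most abundant of a cell. Most begin with a C followed by a run of pyrimidines, the terminal oligopyrimidine or TOP tract, through which mTORC1 and the RNA-binding protein Larp1 adjust their translation. Resting T cells hold many ribosomal protein mRNAs and translate more of them when they are activated.

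Levels are log2 signals relative to the 75th percentile of the array's gene probes, and a difference is the array labelled Rbpj-/- minus the control array. Each pair of levels is given in that order, control first. A gene is represented by its brightest probe. The Rbpj probes did not bear out the label: the brighter of the 2 read 1.96 and 2.28, and the other differed by 0.82 in the same direction, while the position of the probes relative to the floxed exons is not given in the sources used here. The array is therefore named by its label. It was also dimmer, with 49.7% of its gene spots well above background against 57.2% on the control array and a total gene signal of 0.599 of the control's. Markers of other cells differed too. All 20 epithelial markers had positive differences, with a median of 1.55, and their summed level was 8.03 and 9.63. Of 13 macrophage and dendritic cell markers on the array, 12 had a difference and all of these were higher, with summed levels of 6.25 and 7.41 and Mrc1 above background on neither array. Of 9 B and plasma cell markers, 4 were higher, 2 lower and 3, among them Cd79a and Pax5, above background on neither. The 14 T cell markers split into 8 higher and 6 lower, with summed levels of 11.2 and 11.6. Their part in the results below was not tested, and fewer cells of a type and less RNA per cell cannot be told apart in pooled samples.

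The ribosomal protein genes were higher on the array labelled Rbpj-/- when each array was scaled to its 75th percentile, by a median of 0.55 on the log2 scale. Of the 88 genes, 86 passed the scanner's background test on each array, and 84 of the 86 were higher, where 48.9% of all 13513 genes with a difference were. By more than 1.5-fold, 40 were higher, against 20.1% of all genes, and by more than 2-fold 2 were, Rps4l and Rpl39l, against 12.3%. None was more than 1.5-fold lower, against 15.0% of all genes, or more than 2-fold lower, against 5.05%. The median over all genes was -0.01 with an SD of 0.79 over genes, while the core genes had a median of 0.57 and an SD of 0.13 and lay between 0.28 for Rpl17 and 0.98 for Rpsa. All 76 core genes were higher. Before any scaling the summed signal of the 176 probes was lower on the array labelled Rbpj-/-, as was the total gene signal. As a share of that total, the probes held 9.95% on the control array and 11.1% on the other, a ratio of 1.12.

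This direction held with some scalings and not with others. Scaling to the median of the gene probes gave a median difference of 0.38, with 83 of 86 genes higher (37.3% of all genes) and 8 more than 1.5-fold higher (16.3% of all genes). Cyclic loess, which removes trends with brightness, gave 0.16, with 78 of 86 higher (49.5% of all genes) and 2 more than 1.5-fold higher (19.6%). Quantile normalization, which gives both arrays the same distribution of signals, gave -0.03, with 31 higher (46.2% of all genes) and 51 lower (53.7%), and again 2 more than 1.5-fold higher (18.3%). Setting the spike-in controls equal gave -0.57, with 84 lower (90.0% of all genes) and 37 more than 1.5-fold lower (77.1%), and the median of all genes was then -1.10. Relative to the median of all genes, the ribosomal protein genes stood 0.57 higher with the 75th percentile, 0.57 with the median, 0.53 with the spike-in controls and 0.17 with cyclic loess, but 0.02 with quantile normalization. That gap was 0.37 with normexp and 0.31 with no filter on background, where the median of all genes was 0.25. The gaps with the 75th percentile, the median and the spike-in controls are close by construction, because each of these subtracts a constant from an array.

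**Figure D1:**
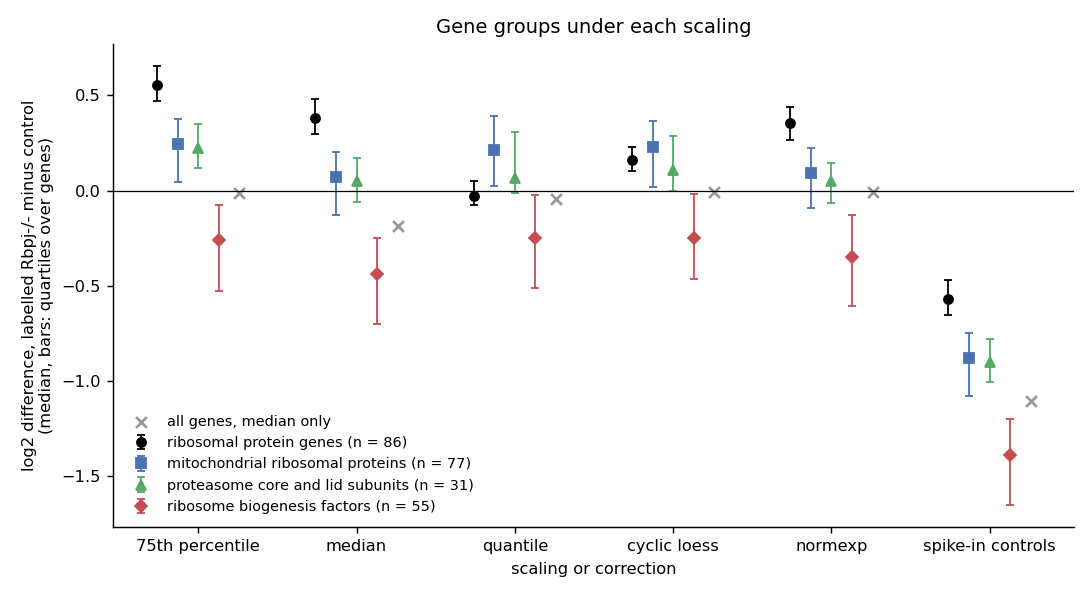
Median log2 difference (array labelled Rbpj-/- minus control, vertical axis) of 4 gene groups and of all genes under 6 scalings or corrections (horizontal axis), with bars for the quartiles over genes. The ribosomal protein genes lie at 0.55 with the 75th percentile, at -0.03 with quantile normalization and at -0.57 with the spike-in controls, while the ribosome biogenesis factors lie below 0 in each.

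Other bright genes differed by a similar amount. Among genes with a mean level of 8 to 11, the 49 ribosomal protein genes had a median difference of 0.59 and the 71 other genes 0.62, with 68 of the 71 higher. With quantile normalization these medians were -0.04 and -0.05. Between levels 6 and 8 the ribosomal protein genes stood apart from the others, at 0.52 (29 genes) against 0.27 (370 genes), and with quantile normalization at -0.02 against -0.16. The spread was narrower among the ribosomal protein genes, with an SD of 0.13 against 0.32 at levels of 8 to 11 and 0.12 against 0.58 at levels of 6 to 8. Within the core genes the difference was larger for brighter probes, with a Pearson's r of 0.42 and Spearman's rho of 0.44 across 76 genes that share both arrays, and with quantile normalization r was -0.27. Genes are not independent replicates, so these are descriptions.

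**Figure D2:**
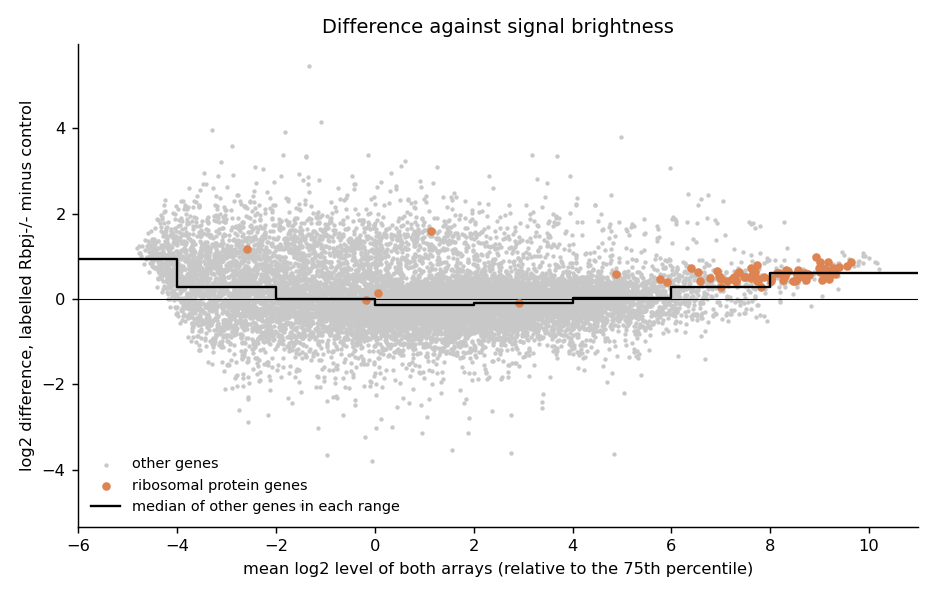
Log2 difference (array labelled Rbpj-/- minus control, vertical axis) against the mean log2 level of both arrays (horizontal axis) for genes that passed the background test on each array, with the ribosomal protein genes in orange and a black line for the median of the other genes in each range of level. The line reaches 0.62 at levels of 8 to 11, where the ribosomal protein genes have a median of 0.59.

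The start sites of the core genes with the largest and the smallest differences are shown to set their TOP tracts side by side, together with Rps6, whose protein is the best known substrate of the S6 kinases. Each is the stretch from 10 bases before to 20 bases from the annotated start in RefSeq, build GRCm38.p6, read 5′ to 3′ on the strand of the gene, with the longest run of a C and at least 4 further pyrimidines that begins within 10 bases of the start in capitals. Rpsa (chr9:120127756-120127785, plus strand), Rps24 (chr14:24490668-24490697, plus strand), Rpl39 (chrX:37085203-37085232, minus strand) and Rpl37a (chr1:72711250-72711279, plus strand) had the largest differences among core genes with an entry. Rpl6 (chr5:121204491-121204520, plus strand), Rpl7a (chr2:26910797-26910826, plus strand), Rpl24 (chr16:55966265-55966294, plus strand) and Rpl5 (chr5:107900518-107900547, plus strand) had the smallest, and Rps6 lies at chr4:86857348-86857377 on the minus strand. Rps24 has a further annotated start, which has no such run.
Rpsa: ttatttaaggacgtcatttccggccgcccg
Rps24: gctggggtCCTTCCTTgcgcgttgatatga
Rpl39: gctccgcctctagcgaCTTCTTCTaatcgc
Rpl37a: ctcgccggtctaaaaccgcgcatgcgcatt
Rpl6: aCCTCCCgtcattgcttatagaccggaagc
Rpl7a: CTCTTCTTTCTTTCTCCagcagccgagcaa
Rpl24: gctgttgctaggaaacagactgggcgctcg
Rpl5: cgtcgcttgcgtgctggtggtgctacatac
Rps6: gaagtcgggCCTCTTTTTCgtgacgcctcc

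Both ends of the order hold genes with and without a TOP run. Of the 67 ribosomal protein genes with a promoter entry, 41 (61.2%) had such a run at an annotated start, against 34.4% of all 27025 genes with an entry. A run of 8 or more pyrimidines was found in 26 of them (38.8%), against 9.43% of all. Among the core genes, the 34 with a run had a median difference of 0.57 (0.41 to 0.87) and the 22 without one 0.56 (0.42 to 0.98). Annotated starts can lie some bases from the true start, so a missing run says only that these letters are not in this window.

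The promoter stretch, from 250 bases before to 50 after the start, was searched on both strands for 4 short motifs. GTGGGAA, the core that RBPJ binds, was found in 6 of the 67 genes (8.96%) and in 7.25% of all genes. Of the 6, Rpl39 (0.80), Rpl36a (0.63), Rpl23 (0.61), Rps3a1 (0.47) and Rpl22l1 (0.46) had a measured difference, on both sides of the members' median, and Rpl3l had none. CACGTG, the E-box bound by Myc, was also found in 6 (8.96%), against 8.09% of all. GCGGAAG, which holds the core bound by ETS factors, was found in 18 (26.9%), against 6.53% of all, and it was more frequent among core small subunit genes (12 of 23, 52.2%) than among core large subunit genes (4 of 33, 12.1%). The shorter CGGAAG, which overlaps it, was found in 43 (64.2%), against 18.8% of all, with 18 of 23 small subunit genes (78.3%) and 21 of 33 large subunit genes (63.6%), so the gap between the subunits depends on the letters searched. The shorter motif and the run of 8 pyrimidines were added after the counts for the first choices had been seen. Mitochondrial ribosomal protein genes held CGGAAG in 56.5% and proteasome genes in 68.0%, and all of these are counts of letters, not of binding.

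The small subunit genes had a median difference of 0.59, with 34 of 35 higher (48.9% of all genes) and 20 more than 1.5-fold higher (20.1% of all genes). The latter count was 4 with the median (16.3% of all genes) or normexp (2907 of all 13147 genes). It was 1 with cyclic loess (19.6%) or quantile normalization (18.3%), and with the last 16 of the 35 were higher (46.2%). Rpsa, which also serves as a receptor for laminin and whose loss in humans leaves no spleen, had the largest difference of the core genes, from 8.43 to 9.41. Its 4 probes differed by 0.67 to 0.98, so each lay above the median of the small subunit. Rps14, whose loss of a copy underlies the anemia of the 5q- syndrome, read 9.20 and 10.07, and Rps16, which reaches toward the tRNA in the P site, read 9.01 and 9.77. Rps24 read 8.58 and 9.44 by its brightest probe, a difference of 0.87, while its other probes differed by 0.56 and 0.57. Rps24 thus came near the median by the probes that were not used.

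For some of the proteins placed along the path of the mRNA or acting in decoding, the differences ran from 0.43 to 0.73. Rps3 and Rps2, at the entry of the mRNA channel, read 6.60 and 7.26 and 7.38 and 8.02. Rps15, which reaches toward the decoding site, read 7.05 and 7.69. Rps10 and Rps20, which are marked with ubiquitin when ribosomes collide, read 8.96 and 9.62 and 8.91 and 9.63. These 5 differed by 0.64 to 0.73, whereas Rps9 and Rps23, which guard the accuracy of decoding, differed by 0.43 and 0.46. The grouping was made after the values were seen, and it leaves out others along the path, such as Rps26 at 0.60.

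Several small subunit genes are mutated in Diamond-Blackfan anemia, a failure of red cell production. Rps19, the gene most often mutated in it, read 6.03 and 6.77, a difference of 0.74. Rps29, a zinc-binding protein, read 8.73 and 9.44. Rps26, next to the mRNA exit, read 7.88 and 8.48, Rps28 read 8.29 and 8.88 and Rps27 read 9.01 and 9.60, so these 3 stood 0.59 or 0.60 higher. Rps12, which lies on the head of the subunit, read 8.63 and 9.36, and Rps15a read 8.01 and 8.62. Rps27a read 8.46 and 9.01 by its brightest probe. A further probe each of Rps15a and Rps27a was dim on the control array and not well above background on the other, so its difference was not measured. Rps27a is made as a fusion with ubiquitin.

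The smallest differences among core small subunit genes were those of Rps7 (6.92 and 7.35), Rps9 (8.28 and 8.72), Rps6 (8.04 and 8.49), Rps23 (8.32 and 8.78), Rps21 (5.54 and 6.00) and Rps3a1 (6.99 and 7.46), at 0.43 to 0.47. Rps25, which some viral mRNAs need for internal initiation, read 7.01 and 7.52. Rps4x, Rps13 and Rps18 differed by 0.51 to 0.54.

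**Figure D3:**
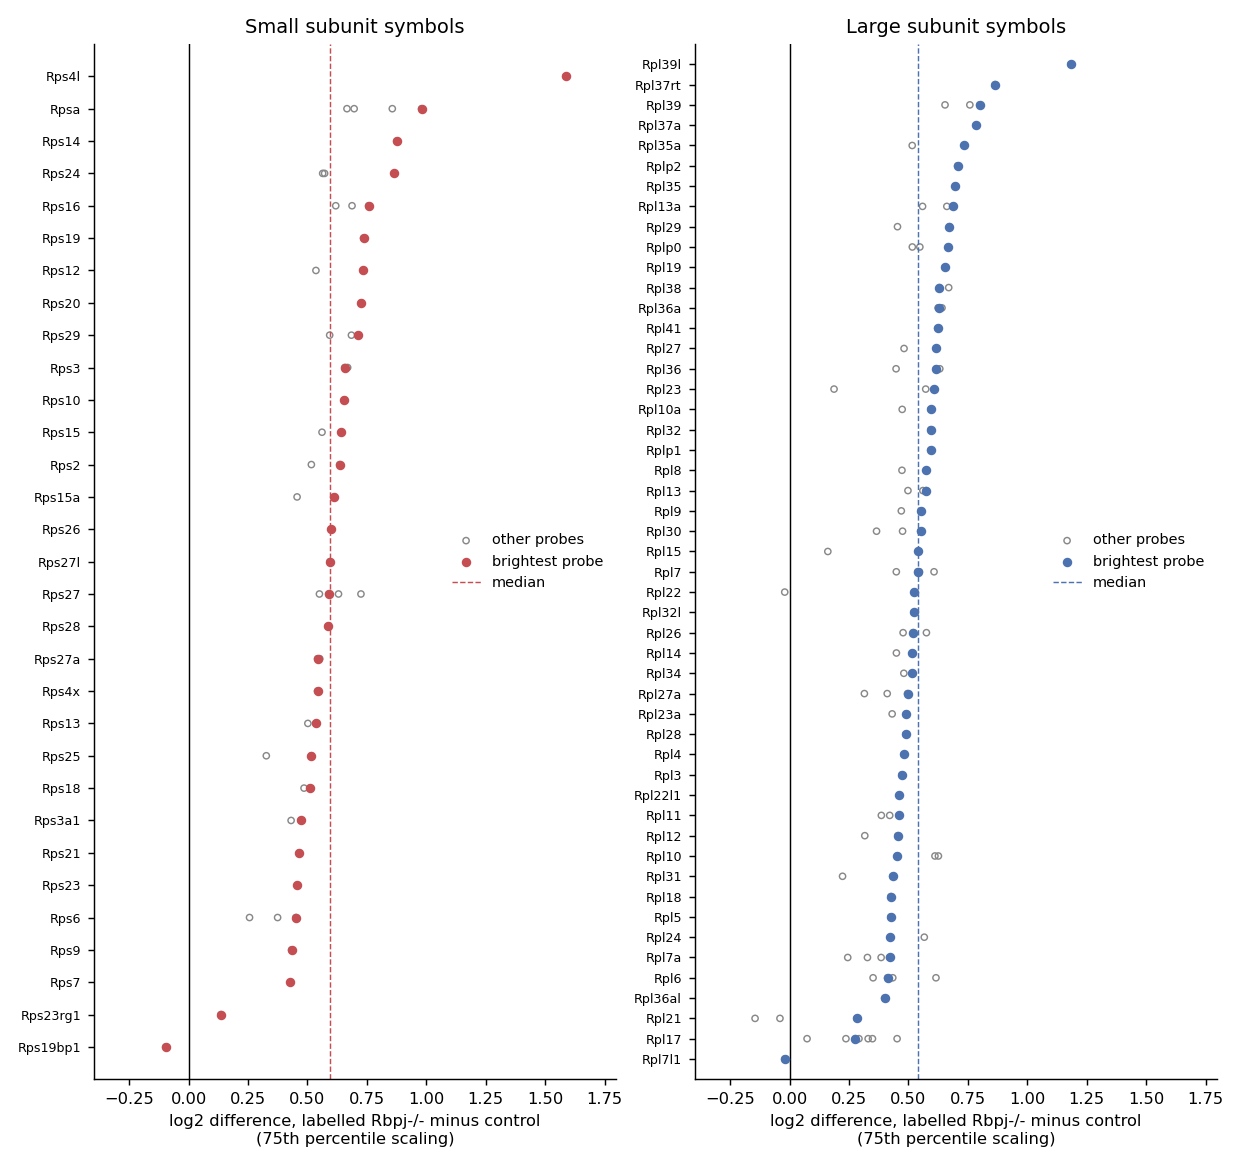
Log2 difference (array labelled Rbpj-/- minus control, 75th percentile scaling, horizontal axis) of small subunit symbols (left, 31 genes drawn) and large subunit symbols (right, 50 genes drawn), ordered by the brightest probe, with filled points for that probe, open circles for other probes that passed the background test on each array and a dashed line for the median over all measured genes of the subunit. Nearly all points lie right of 0, and Rps19bp1, Rpl7l1, 2 probes of Rpl21 and 1 of Rpl22 lie left of it.

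The large subunit genes had a median difference of 0.54, with 50 of the 51 measured higher (48.9% of all genes) and 20 more than 1.5-fold higher (20.1% of all genes). With quantile normalization 15 of the 51 were higher (46.2% of all genes) and 1 was more than 1.5-fold higher (18.3%). The latter count was also 1 with cyclic loess (19.6%), and it was 4 with the median (16.3%) or normexp (2907 of all 13147 genes). The stalk that recruits elongation factors is made of Rplp0 and the acidic proteins Rplp1 and Rplp2. Rplp0 read 8.87 and 9.54, Rplp1 read 8.47 and 9.07 and Rplp2 read 8.95 and 9.65, so all 3 stalk genes were 0.59 to 0.71 higher. Rpl12, at the base of the stalk, read 8.50 and 8.95, a smaller difference of 0.45. Rpl10a, the protein of the stalk on the opposite side of the subunit, read 8.25 and 8.84.

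Around the exit of the peptide tunnel, Rpl39, which lines it, read 7.34 and 8.14, the largest difference of the core large subunit genes at 0.80. Rpl35, where the signal recognition particle docks, read 8.71 and 9.41, and Rpl19 read 8.04 and 8.69. In the same region, Rpl17 had the smallest difference of all core genes, from 7.67 to 7.94, and its 7 probes differed by 0.07 to 0.45. Rpl31 read 7.09 and 7.52, Rpl23a read 7.36 and 7.85 and Rpl26 read 7.22 and 7.74. Neighbors at the exit were thus spread over the whole range of the core large subunit genes.

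Other large subunit genes more than 1.5-fold higher were Rpl37a, a zinc-binding protein (9.16 and 9.95), and Rpl35a, mutated in Diamond-Blackfan anemia (7.23 and 7.97). Rpl13a, which is released from the ribosome after interferon-γ to silence inflammatory mRNAs in myeloid cells, read 7.98 and 8.67. Rpl29 read 8.23 and 8.91, and Rpl38, needed for translation of Hox mRNAs in the embryo, read 8.74 and 9.37. Rpl41, a peptide of very few residues, read 8.69 and 9.32. Rpl36a (6.22 and 6.85), Rpl27 (7.82 and 8.44), Rpl36 (8.28 and 8.90), Rpl23 (8.41 and 9.02) and Rpl32 (8.36 and 8.96) were 0.59 to 0.63 higher. Rpl23 can bind Mdm2, the ligase that degrades p53.

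Rpl5 and Rpl11, which carry 5S ribosomal RNA into the ribosome and bind Mdm2 when assembly fails, read 6.36 and 6.79 and 8.95 and 9.41, in the lower part of the range. Rpl3, near the peptidyl transferase center, read 7.78 and 8.25, and Rpl8, in the same region, read 8.26 and 8.84. Rpl10, which joins the subunit last and is mutated in T cell leukemia, read 8.82 and 9.27 by its brightest probe, and its other probes differed by up to 0.63. The smallest differences after Rpl17 were those of Rpl21 (6.87 and 7.15), Rpl6 (8.25 and 8.67), Rpl7a (7.10 and 7.52) and Rpl24 (7.81 and 8.23). For Rpl21, 2 dim probes differed by -0.15 and -0.04. Rpl13, Rpl14, Rpl15, Rpl27a and Rpl30, each with probes more than 1 log2 unit apart in level, read 8.49 and 9.06, 8.31 and 8.83, 7.39 and 7.93, 7.78 and 8.27, and 7.36 and 7.91. Rpl4, Rpl9, Rpl18, Rpl28 and Rpl34 differed by 0.43 to 0.55.

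**Figure D4:**
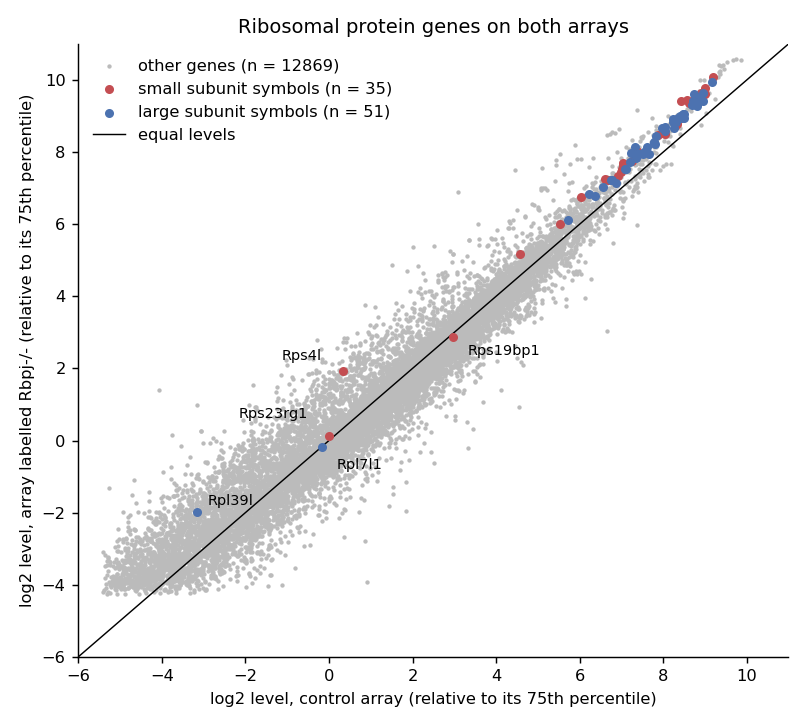
Log2 level of the control array (horizontal axis) against that of the array labelled Rbpj-/- (vertical axis), each relative to its 75th percentile, for genes that passed the background test on each array, with small subunit symbols in red, large subunit symbols in blue, other genes in gray and a line for equal levels. The core genes form a tight band above the line at the bright end, and Rpl39l, Rpl7l1, Rps23rg1, Rps4l and Rps19bp1 lie apart at lower signals.

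Paralogs and retrogenes gave the widest spread, with an SD of 0.53 over the 10 of 12 that were measured. Rps4l, a copy of the X-linked Rps4x, had the largest difference of all, from 0.34 to 1.93, and Rps4x itself read 6.69 and 7.23. Rpl39l, a paralog of Rpl39 best known from the testis, read -3.17 and -1.99. Rpl39l was dim, and its unscaled signal was nearly equal on the arrays, at 56.7 and 57.2, while that of Rps4l was 645 and 861. With quantile normalization Rps4l and Rpl39l differed by 1.63 and 1.12, where the core genes lay between -0.31 and 0.37. With the spike-in controls they differed by 0.46 and 0.059, where the core genes lay between -0.85 and -0.14.

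Rpl22, which developing αβ T cells need, read 7.62 and 8.15 by its brightest probe, and a dim probe differed by -0.02, the widest gap between probes of a gene at 0.54. Its paralog Rpl22l1 read 6.77 and 7.23. Rps27l, a p53 target, read 4.58 and 5.18, a difference of 0.59 like that of Rps27. Rpl36al read 5.72 and 6.12, below the difference of Rpl36a. Rpl7 read 8.04 and 8.58, while Rpl7l1, which takes part in assembly of the large subunit, read -0.16 and -0.18. Rpl37rt (8.74 and 9.60) and Rpl32l (7.41 and 7.93) are near copies of Rpl37 and Rpl32, and are uncertain because near-identical transcripts can share a probe, which was not tested. No probe was matched to Rpl37 here. Rps23rg1 read 0.00 and 0.13 and Rps19bp1 read 2.97 and 2.87. Rpl10l, best known from the testis, and Rpl3l, best known from muscle, were not well above background on either array.

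The probes of a gene mostly differed by a similar amount. Of the 176 probes, 170 passed the background test on each array, and 165 of these were higher. The 148 with a mean level above 4 were all higher, by 0.24 to 0.98. For 51 genes with several such probes on both arrays, the range of their differences had a median of 0.15 and never passed 1, although the levels of 35 genes' probes lay more than 1 log2 unit apart. Among probes above level 4, the SD between probes of the same gene was 0.08 and that between genes 0.11, over the 44 genes with several such probes. For comparison, the SD of a difference over probes spotted repeatedly on each array was 0.06 above level 4 and 0.16 over all levels, which covers technical error within an array only.

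Most genes that build ribosomes had differences of the opposite sign. Of 55 ribosome biogenesis factors measured, 46 were lower and 9 higher, where 51.1% of all genes were lower, with a median of -0.26, and 12 were more than 1.5-fold lower (15.0% of all genes). The median stayed below 0 with every scaling run, at -0.44 with the median, -0.25 with either cyclic loess or quantile normalization, -0.35 with normexp and -1.39 with the spike-in controls. Mdn1, the large ATPase that strips assembly factors from the large subunit, read 0.11 and -1.36, the largest difference, and Rrp12 read -1.31 and -0.72, the largest in the other direction. Among nucleolar proteins, Ncl read 5.47 and 5.32, Npm1 read 5.97 and 6.08 and the RNA methyltransferase Fbl read 3.21 and 3.35, while Nop56, which works with Fbl and is named here after its values were seen, read 5.41 and 4.32. The ribosomal protein median stood above that of the biogenesis factors by 0.82 with each scaling by a constant, by 0.22 with quantile normalization and by 0.41 with cyclic loess.

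RNA polymerase I, which transcribes ribosomal RNA, had 15 of 20 genes lower (51.1% of all genes), with a median of -0.15. Taf1d, of its promoter factor, read 1.34 and 0.65, and Polr2f, a subunit shared with the other polymerases, read 2.72 and 3.10. Of 25 regulators in mTORC1 and Myc signaling, 17 were lower (51.1% of all genes), with a median of -0.23. Other genes of similar brightness were also more often lower. Outside the ribosomal protein genes, 1279 of 3278 genes at mean levels of 0 to 2 and 1221 of 2930 at 2 to 4 were higher. The median levels were 2.67 and 2.76 for RNA polymerase I and 1.57 and 1.38 for the list of regulators. Mtor read -0.16 and -1.14, the largest difference of the list, and Rps6kb1, the S6 kinase, read 4.07 and 3.63. Larp1 read 4.52 and 4.19, and Eif4ebp1, the repressor of cap-dependent initiation, read 1.34 and 1.24. Myc read 0.25 and 0.55 and Pdcd4, an inhibitor of the helicase eIF4A, read 4.51 and 5.37, and both were among the 8 that were higher.

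Translation factors were mixed. Of 13 elongation and termination factors, 10 were higher (48.9% of all genes), with a median of 0.26, and 8 were with the median, quantile normalization or normexp. Eef1a1, which brings tRNA to the ribosome and carries a TOP tract, read 7.86 and 8.46, and Eef2, which moves the ribosome along, read 7.52 and 7.78. Hbs1l, a rescue factor for stalled ribosomes, read 1.46 and 0.77, and Eif5a2 read -0.71 and 0.14. Of 38 initiation factors, 21 were higher and 17 lower, near the 48.9% of all genes that were higher, with a median of 0.02, from Eif4a2 (5.96 and 4.98) to Eif1ax (2.70 and 3.72). This balance turned with the scaling, to 12 higher and 26 lower with the median or normexp, 15 and 23 with quantile normalization (median -0.10) and 17 and 22 with cyclic loess (median -0.085). The share of all genes that were higher moved too. It was 37.3% with the median, 46.2% with quantile normalization and 49.5% with cyclic loess, and 6498 of 13147 genes were higher with normexp.

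The ribosome partners outside the symbol rule had a median of 0.47, with 8 of 9 higher (48.9% of all genes), and 5 of 9 with quantile normalization (46.2%). Fau, made as a fusion with a small subunit protein, read 9.31 and 10.09. Rack1, a scaffold on the small subunit, read 8.75 and 9.35. Tpt1, whose mRNA also carries a TOP tract, read 9.16 and 9.94. Naca (6.30 and 6.76) and Btf3 (5.51 and 5.76), which form a complex on nascent chains, and Nap1l1 (4.76 and 5.06) and Hnrnpa1 (2.91 and 3.13) differed less. Snhg1, a noncoding host of snoRNAs, went the other way, at 2.16 and 0.98.

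**Figure D5:**
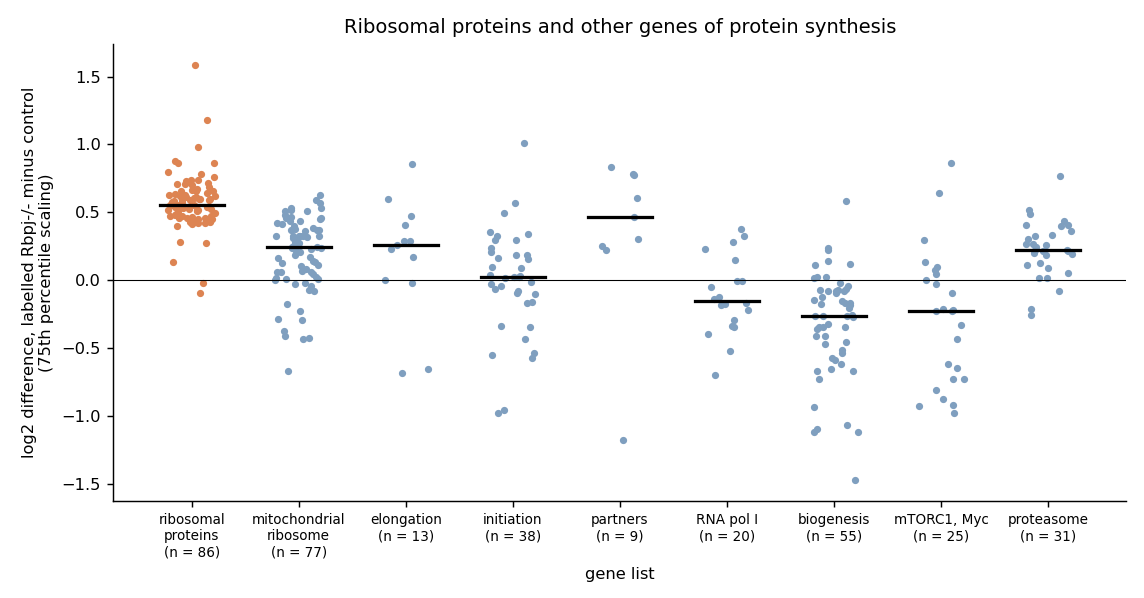
Log2 difference (array labelled Rbpj-/- minus control, 75th percentile scaling, vertical axis) of each gene, as points spread sideways for legibility, in the ribosomal proteins and 8 other lists (horizontal axis), with a black bar for the median. The ribosomal proteins cluster around 0.55, the biogenesis factors around -0.26 and the proteasome around 0.22.

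Among lists outside the cytosolic ribosome, 63 of 77 mitochondrial ribosomal proteins were higher (48.9% of all genes), with a median of 0.24, from Mrpl9 (3.66 and 2.99) to Mrps10 (1.58 and 2.21). Of 31 proteasome subunits, 28 were higher (48.9% of all genes), with a median of 0.22, from Psmd12 (4.21 and 3.95) to Psmb3 (5.91 and 6.67). The 13 housekeeping genes had a median of 0.32, with 11 higher (48.9% of all genes) and Actb at 9.43 and 10.43. Scaled to the median, 45 of the 77, 22 of the 31 and 9 of the 13 housekeeping genes were higher, where 37.3% of all genes were. The proteasome count was also 22 with quantile normalization and cyclic loess and 20 with normexp, and 8 housekeeping genes were higher with quantile normalization. Of all genes, 46.2% were higher with quantile normalization, 49.5% with cyclic loess and 6498 of 13147 with normexp. With quantile normalization the median of the ribosomal protein genes lay below that of the mitochondrial list (a gap of -0.24) and of the proteasome (-0.095) and 0.091 above that of the other genes with a level above 6. With cyclic loess these gaps were -0.066, 0.054 and 0.14.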

How the data were processed

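Both arrays were Agilent 1-color arrays of the same slide and scan. The authors deposited scanner output (Agilent Feature Extraction 10.7.1.1, per the submitters' processing notes), in which intensity is a background-subtracted spot signal on a linear scale, not normalized between arrays. They also deposited a table of other values, log2 values centered per probe and normalized in GeneSpring with settings not given, whose 6231 lines without a value were not used. Control spots and those the software calls outliers were removed, and the spots of each probe were averaged. The 75th percentile of log2 signal over gene probes (8.99 and 7.82) was subtracted. Of 55679 probes, 27509 were named through their RefSeq accession (GRCm38.p6). A gene took its brightest probe and needed a probe well above background (at least 50% of its spots) on at least 1 array, and where the other was below, a bound was used (558 genes; none of the ribosomal protein genes). The number of arrays limits the precision. The step from probes to gene differences was tried on a simulated pair of arrays, made from the control levels with noise and shifts in chosen genes. The simulated arrays did not differ in brightness and were not scaled, so the choice of scaling was not tested. Alternatives used limma 3.58.1 (R 4.3.3), Python 3.11.15, numpy 2.4.6 and pandas 2.3.3, and normexp with an offset of 50. Genes with values on both arrays were those more than 1.5-fold apart, the extremes, the paralogs, genes with probes over 1 log2 unit apart and, of other lists, the extremes and fixed regulators. The members and lists were chosen with earlier results of these data known. A few genes that meet this rule are counted in the totals and are not reported here by name.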

Additional observations from a re-analysis of the deposited data

How the results depend on the processing

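Using the mean over a gene's probes, the table normalized by the authors, a stricter or no filter on background, or the outlier spots too, moved each of the 11 medians by less than the technical SD of a difference, 0.16, and the counts of ribosomal protein genes more than 1.5-fold higher or lower by at most 1.5 times (those more than 2-fold higher went from 2 to 4 with no filter and 3 with the mean over probes), with the median over initiation factors, 0.02, at -0.00024 with the mean over probes. For some of these settings this was fixed in advance. The authors' table held the unscaled difference plus a constant, 1.16 at the median and within 0.01 of it for all 55679 probes compared. All 86 measured ribosomal protein genes had passed the background test on each array, so the stricter filter could not change them. With no filter the median of all genes went from -0.01 to 0.25, so the gap of the ribosomal protein genes over it went from 0.57 to 0.31. The scaling moved more. Scaling to the median changed the medians to 0.38 for the ribosomal protein genes, 0.42 for the small subunit, 0.36 for the large subunit, 0.070 for mitochondrial ribosomal proteins, 0.084 for elongation factors, -0.15 for initiation factors, -0.44 for biogenesis factors, -0.33 for RNA polymerase I, -0.40 for the mTORC1 and Myc regulators, 0.29 for the ribosome partners and 0.048 for the proteasome, with 8 ribosomal protein genes more than 1.5-fold higher, by construction a shift of -0.17. Quantile normalization gave -0.027, 0.00 and -0.037 for the ribosomal protein genes and the small and large subunits, 0.037 for elongation factors and 0.035 for the partners, with 2 genes more than 1.5-fold higher. Cyclic loess gave 0.16, 0.21 and 0.14 and 0.21 for the partners, also with 2 genes. Normexp gave 0.36, 0.38 and 0.34, 0.056 for elongation factors, -0.15 for initiation factors, 0.093 for mitochondrial ribosomal proteins (50 of 77 higher, and 6498 of all 13147 genes), -0.26 for RNA polymerase I, 0.24 for the partners and 0.050 for the proteasome, with 8 genes (2907 of all genes). Setting the spike-in controls equal, by construction a shift of -1.12, gave -0.57, -0.53 and -0.59, -0.88 for mitochondrial ribosomal proteins, -0.87 for elongation factors, -1.10 for initiation factors, -1.39 for biogenesis factors, -1.28 for RNA polymerase I, -1.35 for the regulators, -0.66 for the partners and -0.90 for the proteasome, with 0 genes more than 1.5-fold higher and 37 lower. For quantile normalization, cyclic loess and normexp the cause was not tested.

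Of the genes more than 1.5-fold higher, 13 changed sign with quantile normalization, among them Rpl10a -0.016, Rpl27 -0.0080, Rpl35 -0.0015, Rpl37a -0.027, Rpl38 -0.057, Rpl41 -0.047, Rplp0 -0.045, Rplp1 -0.043, Rps10 -0.026, Rps26 -0.027, Rps27 -0.14, and Rps28 -0.028. With the spike-in controls 38 did, among them Rpl10a -0.53, Rpl13a -0.44, Rpl19 -0.47, Rpl23 -0.52, Rpl27 -0.51, Rpl29 -0.45, Rpl32 -0.53, Rpl35 -0.43, Rpl35a -0.39, Rpl36 -0.51, Rpl36a -0.50, Rpl37a -0.34, Rpl37rt -0.26, Rpl38 -0.49, Rpl39 -0.33, Rpl41 -0.50, Rplp0 -0.46, Rplp1 -0.53, Rplp2 -0.42, Rps10 -0.47, Rps12 -0.39, Rps14 -0.25, Rps15 -0.48, Rps15a -0.51, Rps16 -0.37, Rps19 -0.39, Rps2 -0.49, Rps20 -0.40, Rps24 -0.26, Rps26 -0.52, Rps27 -0.54, Rps27l -0.53, Rps28 -0.54, Rps29 -0.41, Rps3 -0.47 and Rpsa -0.14. The mean of all probes turned Rps15a to -0.078 through its dim probe, which was above background on the control array only. Rps27a, less than 1.5-fold higher by its brightest probe, turned to -0.0019 through a dim probe of the same kind. No paired analysis was possible because each genotype has 1 array, and for the same reason no array could be left out. The dimmer signal of the array labelled Rbpj-/- limits what can be said of dim probes.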

Other observations

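The 18 genes of the list that are mutated in Diamond-Blackfan anemia all had positive differences (48.9% of all genes did), with a median of 0.59 and a range of 0.43 to 0.87, close to the 0.57 of all 76 core genes. With quantile normalization 6 were higher (46.2% of all genes) and 12 lower (53.7%), with a median of -0.024. All 18 were lower when scaled by the spike-in controls (90.0% of all genes), with a median of -0.53, where that of all genes was -1.10.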
